A study of Mus musculus with 6 samples.

Results

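Hnf4a, Onecut2, Barx2 and Sp8 are 4 genes for transcription factors that act in epithelial lineages, picked from 10766 genes that could be named in these tumour RNA profiles. They were selected because their counts differed between tumours grown from control cells and tumours grown from cells targeted at Uhrf1, so their own differences between these groups are given as a description, without a test. Each gene was read from the most-counted row whose positions cover at least 50 bp of its exons and of no other gene's. All 4 were among the 4579 named genes with enough counts to enter the fit. Barx2 entered it through the targeted tumours alone and Sp8 through the control tumours alone. In the Uhrf1-targeted tumours Hnf4a, Onecut2 and Barx2 were higher than in every control tumour, while Sp8 was counted in the control tumours and had no read in the targeted ones.

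The tumours came from LG1233-OVA, a mouse lung cancer line whose name carries the model antigen ovalbumin. Stable lines were compared in 2 groups of 3 tumours: sgNT, from wild-type cells with a non-targeting CRISPR guide, and sgUhrf1, from cells in which Uhrf1 had been targeted with CRISPR/Cas9. One dose of 1000000 cells was placed under the skin of female C57BL/6 mice, and whole tumours were taken on day 27, so cancer cells and host cells were sequenced together. The sources used here do not say whether each line is a single clone, or how old the mice were.

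Hnf4a encodes a nuclear receptor that binds DNA as a homodimer and maintains the hepatocyte and intestinal programmes. Its gene has a distal and a proximal promoter that give isoforms with different first exons. Onecut2 encodes a factor with one CUT domain and a homeodomain, active with its relative Onecut1 in liver, bile duct and pancreas development. Barx2 encodes a homeodomain factor of the Bar class found in branching epithelia, hair follicle and muscle precursors, and Sp8 encodes a zinc finger factor of the SP family needed in the apical ridge of the limb bud and in the forebrain. Uhrf1 encodes the chromatin protein that brings DNA methylation to newly copied DNA; methylation was not measured in these samples.

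The upstream sequences of Hnf4a and Sp8 are shown to set a gene that was higher beside one that was lower in the targeted tumours. They are from RefSeq windows on GRCm38.p6, 250 bases before to 50 after a start, available for 2 of the 4 genes. Printed is the longest run before each start that lies outside annotated exons, 201, 212 and 250 bases long. The first lies before the distal Hnf4a start, chr2:163506607-163506807 on the plus strand, and its capitals mark ATCAAT, a core that ONECUT factors bind. The second lies before the proximal Hnf4a start, chr2:163546943-163547154 on the plus strand, and its capitals mark a pair of HNF1 cores, GTTAAT, both read on the opposite strand. The third lies before the second of 3 Sp8 starts, chr12:118846983-118847232 on the plus strand, and its capitals mark every CpG.
Hnf4a distal: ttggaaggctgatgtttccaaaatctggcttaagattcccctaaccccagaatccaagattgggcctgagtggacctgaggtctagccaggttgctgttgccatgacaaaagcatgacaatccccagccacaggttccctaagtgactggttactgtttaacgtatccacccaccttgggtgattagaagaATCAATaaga
Hnf4a proximal: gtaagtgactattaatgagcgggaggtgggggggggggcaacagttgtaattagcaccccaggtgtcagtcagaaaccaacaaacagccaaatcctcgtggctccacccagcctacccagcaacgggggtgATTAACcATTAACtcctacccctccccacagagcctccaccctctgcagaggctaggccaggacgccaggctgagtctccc
Sp8 second start: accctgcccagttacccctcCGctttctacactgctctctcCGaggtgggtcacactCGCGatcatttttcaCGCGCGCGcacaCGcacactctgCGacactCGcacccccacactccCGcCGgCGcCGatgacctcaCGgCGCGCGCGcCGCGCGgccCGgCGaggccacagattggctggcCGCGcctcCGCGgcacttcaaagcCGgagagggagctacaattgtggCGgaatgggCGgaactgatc

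Parts of each gene were counted, and the longer coding stretches among them are shown for Barx2 and Hnf4a. Coding bases make up 264 of 1355 in the Barx2 row. They are 134 of 2002 in the main Hnf4a row, of which 82 are printed, and 156 of 3990 in a second Hnf4a row. A row's count does not say where in the row the reads fell. The Barx2 stretch lies in exon 4 of 4, chr9:31846792-31847055 on the minus strand. The Hnf4a stretches lie in exon 7 of 10, chr2:163564154-163564309, and in exon 9, chr2:163568887-163568968, on the plus strand, downstream of both promoters, so the isoforms are not separated here. All are GRCm38 sequence in lower case, with nothing marked.
Barx2 exon 4: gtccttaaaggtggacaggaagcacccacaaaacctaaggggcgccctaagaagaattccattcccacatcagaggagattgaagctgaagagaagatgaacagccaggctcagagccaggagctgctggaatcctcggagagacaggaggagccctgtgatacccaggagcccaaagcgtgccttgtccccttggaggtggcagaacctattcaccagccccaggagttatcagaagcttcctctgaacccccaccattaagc
Hnf4a exon 7: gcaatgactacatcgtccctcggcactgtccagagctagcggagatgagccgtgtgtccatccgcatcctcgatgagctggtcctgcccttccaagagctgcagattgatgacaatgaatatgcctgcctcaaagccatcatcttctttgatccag
Hnf4a exon 9: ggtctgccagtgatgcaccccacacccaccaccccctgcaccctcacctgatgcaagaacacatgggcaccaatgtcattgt

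The Sp8 stretch holds 32 CpG. In the whole 300-base window around that start the observed over expected CpG ratio was 1.19, higher than in 99.5% of the 32817 mouse windows of that length, whose median was 0.383. The other Sp8 windows had ratios of 0.157 and 0.476. Both Hnf4a windows were CpG-poor, at 0.183 for the distal and 0.163 for the proximal start, with 26.2% and 23.0% of all windows lower. On either strand, ATCAAT was found once in the distal Hnf4a window and once in the second Sp8 window, against 7.54% of all windows with a match. GTTAAT, which contains the homeodomain core TAAT, was found only in the proximal Hnf4a window, with 2 matches, against 7.10% of all windows. TAAT alone stood in 58.0% of windows and the SP box GGGCGG in 35.6%. CAAAGTCCA, an element HNF4 binds, was in 0.475% of windows and in none of these 5. A match is an exact run of letters in a window and does not show that a factor binds there. A site that differs in any letter is missed, so a window without a match may still hold one.

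What was counted for each gene was a part of it, because the rows carry names from one genome build and the reads positions from another. Hnf4a (GRCm38 chromosome 2, 163506808 to 163572910, plus strand) was read from a row listed as Ada that covers 765 of its 4828 exon bases, 134 coding and 631 untranslated, with 483 bases of Hnf4a intron and 754 outside genes. A second row, listed as Pkig, covers 156 exon bases, all coding, in exon 7 of 10, but 3247 of its 3990 bases are Hnf4a intron and 587 lie in Hnf4aos, the antisense gene, or R3hdml. Onecut2 (chromosome 18, 64340020 to 64400987, plus strand) was read from 3046 bases of its 3' untranslated region, 18.8% of its exon length, in a row listed as St8sia3 that has 8656 further bases outside genes. Barx2 (chromosome 9, 31846044 to 31913462, minus strand) was read from 314 exon bases, 264 of them coding, in a row listed as Gm3756 whose other 1041 bases are Barx2 intron. Sp8 (chromosome 12, 118846329 to 118852576, plus strand) was read from 639 bases of its 3' untranslated region in a row listed as Abcb5, which also takes 2524 bases inside Abcb5, none of them exon, and 1215 outside genes. Strand was not used in the counting, so antisense or intron reads within these intervals are included, and the share of Abcb5 in the Sp8 value was not tested.

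**Figure D1:**
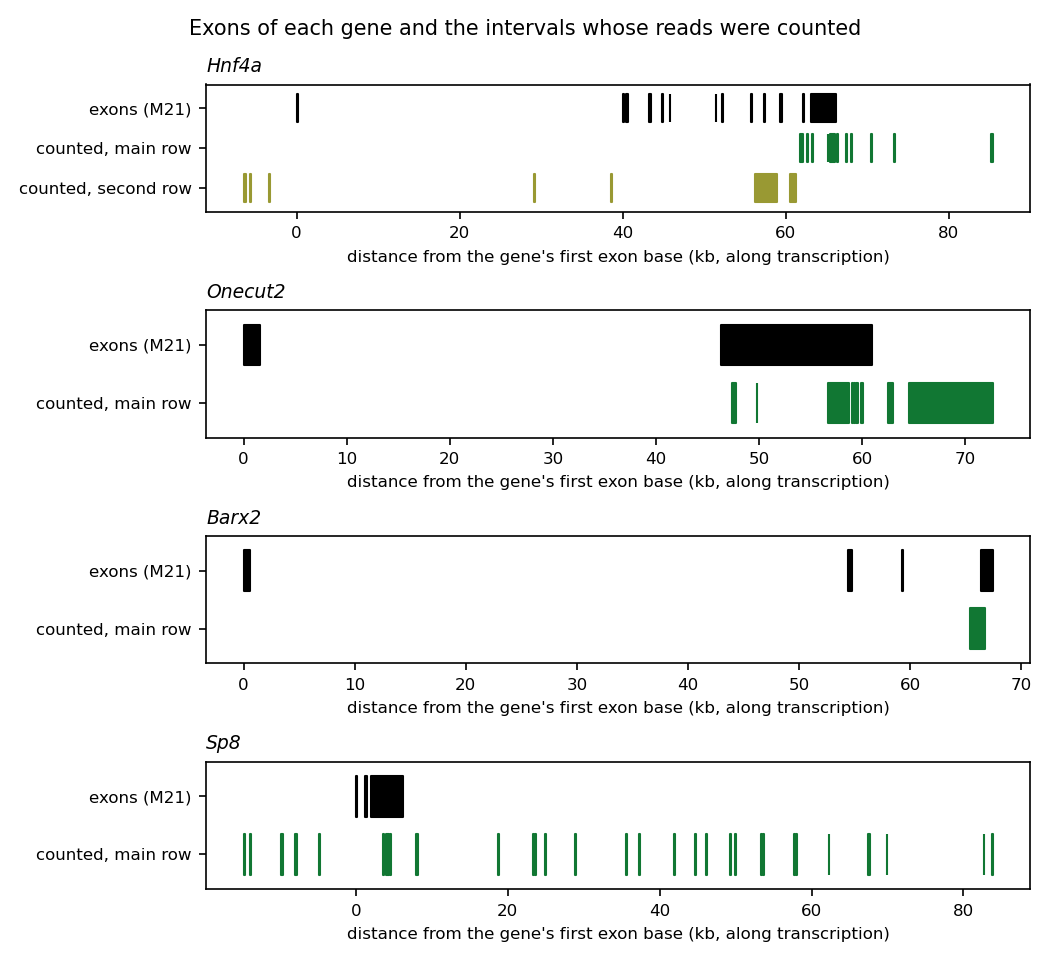
Exons of Hnf4a, Onecut2, Barx2 and Sp8 (black) and the intervals whose reads were counted for each (green, and olive for the second Hnf4a row), against distance from the first exon base in kb along transcription. The green intervals sit at the 3' end of Hnf4a, Onecut2 and Barx2, and the Sp8 row has 1 cluster over the last Sp8 exon and many short pieces outside the gene.

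Each tumour gave 5462555 to 6375069 counts, and 3 counts, the most that a count of 0 allows at the 95% level, were worth 0.445 to 0.660 CPM, counts per 1000000 TMM-scaled counts. Of 10503 rows tested with edgeR's quasi-likelihood test, 2121 (20.2%) were higher and 2066 (19.7%) lower in sgUhrf1 tumours at an adjusted p of 0.05, together 39.9%. Among the 4579 named genes the shares were 20.6% higher and 21.5% lower, together 42.1%, and since the 4 genes were chosen on this contrast nothing is read from their own directions against these shares. Uhrf1 itself held 841, 917 and 554 counts in controls, then 685, 460 and 409 in targeted tumours, with overlapping ranges and a log2 fold change of -0.37 ± 0.23 (SE; edgeR adjusted p = 0.227), and RNA level alone does not check an edit made in the DNA. A second Uhrf1 row, over 238 bp of exon, held 76, 133 and 51 against 39, 29 and 36 counts without overlap, a change of -1.08 ± 0.39 (SE; edgeR adjusted p = 0.0524), and another row held 2, 7 and 0 against 0, 0 and 0. The tumours sgNT 2 and sgUhrf1 1 held 735 and 641 CPM over 12 skeletal muscle markers, against 82.7 to 120 CPM in the other 4.

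Hnf4a was the most variable of the 4 genes among control tumours, and higher in every targeted one. It had 516, 210 and 17 counts in sgNT 1, 2 and 3, or 81.7, 31.1 and 3.01 CPM. The sgUhrf1 tumours had 1507, 3086 and 1826 counts, or 267, 490 and 402 CPM. Every sgUhrf1 tumour stood above every sgNT tumour, the lowest 3.27 times the highest. The means were 38.6 ± 39.9 CPM (SD, n = 3) in sgNT and 386 ± 112 CPM (SD, n = 3) in sgUhrf1 tumours, with a fitted log2 fold change of 3.32 ± 0.82 (SE), about 9.97-fold. The highest control tumour held 27.1 times the lowest, while the highest targeted tumour held 1.84 times the lowest. Without sgNT 1 the log2 fold change was 4.46, and with limma-voom, which weights each count on a log scale, it was 4.17.

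The spread of Hnf4a among controls was large beside that of rows with a like mean over all 6 tumours. On the log2 CPM scale its SD over the sgNT tumours was 2.37. This was larger than for 99.8% of the 2158 rows whose mean over all tumours lay within 1 log2 unit. Rows were not matched on the control level, which for Hnf4a was below that mean. Over the sgUhrf1 tumours it was 0.45, larger than for 81.9% of those rows. The tumour sgNT 3, lowest for Hnf4a, was also the lowest control for Onecut2.

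The second Hnf4a row, mostly intron, did not separate the groups. It held 77, 32 and 4 counts in sgNT tumours, or 12.2, 4.74 and 0.709 CPM, and 100, 288 and 33 counts in sgUhrf1 tumours, or 17.7, 45.7 and 7.26 CPM. The tumour sgUhrf1 3 lay below sgNT 1, and the log2 fold change was 2.00 ± 0.84 (SE). Of the counts in both Hnf4a rows, this row took 13.0%, 13.2% and 19.0% in the sgNT tumours, with 95% Wilson intervals of 10.5 to 15.9, 9.52 to 18.1 and 7.67 to 40.0. In the sgUhrf1 tumours it took 6.22%, 8.54% and 1.78%, with intervals of 5.14 to 7.51, 7.64 to 9.53 and 1.27 to 2.48. The intervals of sgUhrf1 1 and sgUhrf1 3 lay below those of every control, and the interval of sgUhrf1 2 overlapped those of sgNT 2 and sgNT 3. These intervals cover counting error only.

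Onecut2 moved with Hnf4a and had the most counts of the 4. It had 1013, 495 and 289 counts in the sgNT tumours, or 160, 73.4 and 51.2 CPM. In the sgUhrf1 tumours it had 3397, 6371 and 3119 counts, or 601, 1011 and 686 CPM. The groups did not overlap, and the lowest sgUhrf1 tumour held 3.75 times the highest sgNT tumour. Mean levels were 95.0 ± 57.7 CPM (SD, n = 3) and 766 ± 216 CPM (SD, n = 3), a fitted log2 fold change of 3.01 ± 0.42 (SE), about 8.06-fold. Among controls the highest held 3.13 times the lowest. The SD of Onecut2 there, 0.84 log2 units, exceeded that of 99.1% of 1103 rows of like mean over all tumours, not matched on control level.

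Barx2 went from almost no reads to a moderate level. Its 3 sgNT tumours held 3, 2 and 1 counts, or 0.475, 0.296 and 0.177 CPM, all at or below the value of 3 counts. Barx2 therefore entered the fit through the targeted tumours alone. The sgUhrf1 tumours held 117, 254 and 151 counts, or 20.7, 40.3 and 33.2 CPM. All targeted tumours were far above all controls, at 31.4 ± 9.92 CPM (SD, n = 3) against 0.316 ± 0.150 CPM (SD, n = 3). Summed over each group and scaled for depth, the ratio of counts was 98.6, with a 95% interval of 45.0 to 270 from counting error alone, and the fitted log2 fold change was 6.53 ± 0.47 (SE). In bulk tissue, more cells of a type and more RNA per cell cannot be told apart, for this and every other gene here.

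Sp8 ran the other way. It had 35, 23 and 27 counts in the sgNT tumours, or 5.54, 3.41 and 4.79 CPM, a mean of 4.58 ± 1.08 CPM (SD, n = 3). No read fell in its row in any of the 3 sgUhrf1 tumours. Against 3 counts over that whole group, the level was at least 25.0-fold lower, a log2 bound of -4.64. Because the row also takes intervals inside Abcb5, the control value may include reads from outside Sp8, while the absence of reads in the targeted tumours holds for all these intervals. Leaving out 1 targeted tumour shrinks the depth behind the 0, and the bound was then between -4.18 and -3.96.

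**Figure D2:**
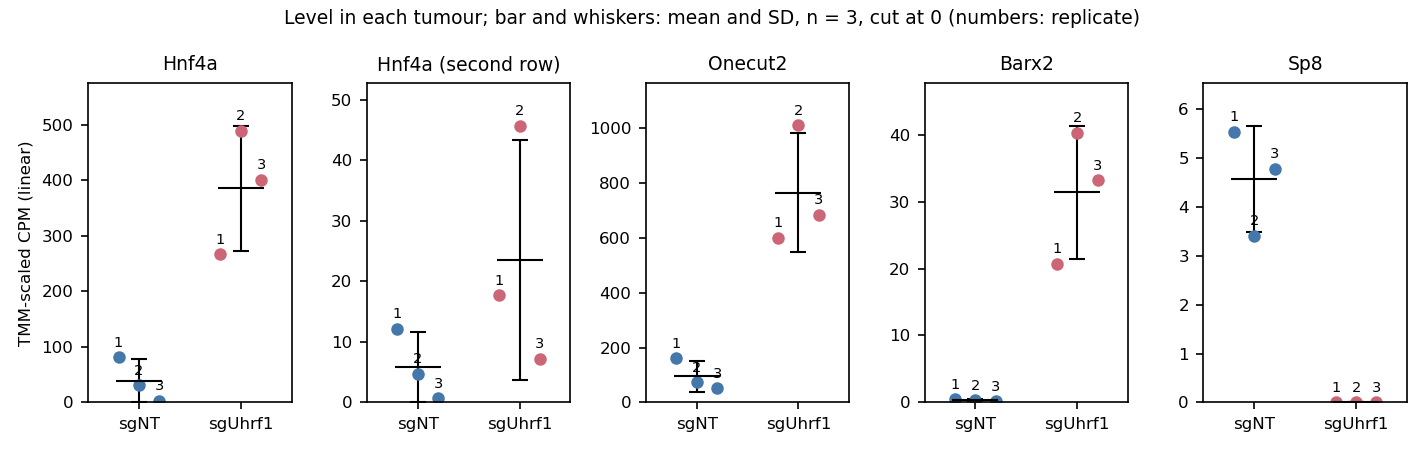
TMM-scaled CPM (linear axes from 0) of each gene in each tumour, with the replicate number beside each point and the mean and SD of 3 tumours as bars, whiskers cut at 0. The sgUhrf1 tumours are above all sgNT tumours for Hnf4a, Onecut2 and Barx2, at 0 for Sp8, and overlap the sgNT tumours in the second Hnf4a row.

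Levels of different genes were compared as CPM per kb of covered exon, a scale that spreads any intron or flanking reads over the exon bases. In the sgUhrf1 tumours the order was Hnf4a at 505 ± 147, Onecut2 at 252 ± 71.0 and Barx2 at 100.04 ± 31.6 CPM per kb (SD, n = 3), with Sp8 at 0. The tumours' ranges, 349 to 640 for Hnf4a, 197 to 332 for Onecut2 and 66.0 to 128 for Barx2, did not overlap between neighbours. This order holds for the main Hnf4a row: the second row, at 113, 293 and 46.5 CPM per kb, was below Onecut2 in each of these tumours. In the sgNT tumours Hnf4a at 50.5 ± 52.1 and Onecut2 at 31.2 ± 18.9 CPM per kb overlapped, and Sp8 at 7.17 ± 1.69 and Barx2 at 1.01 ± 0.477 followed. In sgNT 3 alone, Hnf4a at 3.94 CPM per kb was below Sp8 at 7.49.

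Ratios within a tumour are free of depth and scaling. Hnf4a per kb was 2.03 and 1.69 times Onecut2 in sgNT 1 and 2, and 1.77, 1.93 and 2.33 times Onecut2 in the 3 sgUhrf1 tumours. In sgNT 3 it was 0.234 times Onecut2. The ratio of the other 5 tumours thus lay in a narrow band across both groups, and sgNT 3 was the exception. Barx2 per kb was 0.0287, 0.0392 and 0.0336 of Onecut2 in controls and 0.334, 0.387 and 0.470 in targeted tumours, higher in every targeted tumour than in every control.

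**Figure D3:**
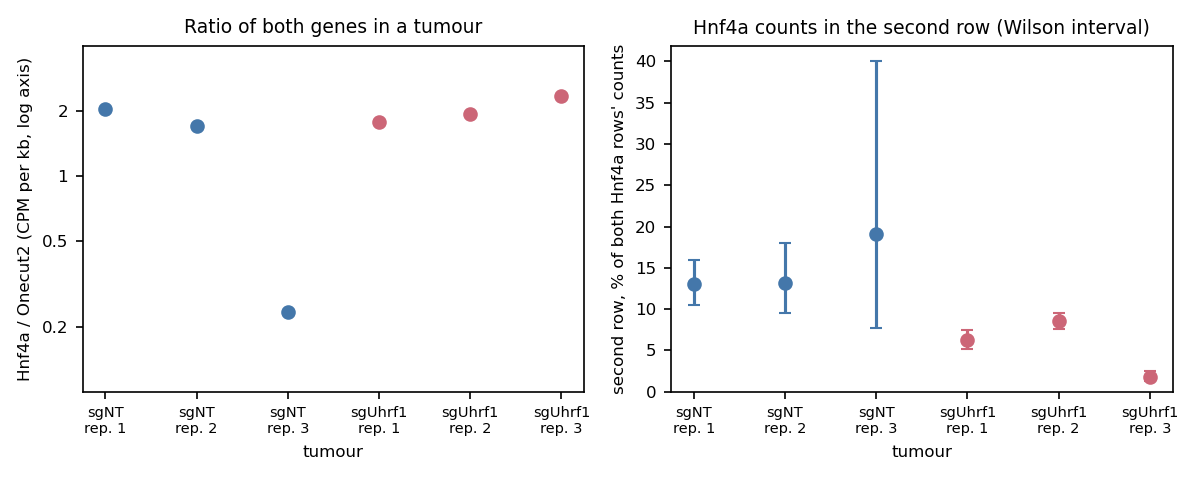
Left, the ratio of Hnf4a to Onecut2 per kb of covered exon in each tumour on a log axis, where sgNT 3 is at 0.234 and the other 5 lie between 1.69 and 2.33. Right, the share of Hnf4a counts that fell in the second, mostly intronic row, with 95% Wilson intervals, from 13.0% to 19.0% in sgNT and from 1.78% to 8.54% in sgUhrf1 tumours.

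Over the 6 tumours, which form 2 separate groups, log2 CPM of Hnf4a and Onecut2 had a Pearson r of 0.94, Onecut2 and Barx2 0.97 and Hnf4a and Barx2 0.87. Sp8 had r of -0.82 with Hnf4a, -0.93 with Onecut2 and -0.99 with Barx2. These are descriptions over n = 6 that mostly restate the group difference. Of 4254 named genes, 73 had an r above 0.95 with Hnf4a, 277 with Onecut2, 315 with Barx2 and 223 with Sp8. The 3 nearest to Hnf4a were Onecut3 (r = 0.992), Krt7 (0.991) and Lgals4 (0.990), each lowest in sgNT 3. Nearest to Onecut2 were Nfkbiz, Mob3b and Kmt5c (all 0.998). Nearest to Barx2 were H2-Q2 (0.999), Lima1 (0.999) and Bpifb1 (0.998); H2-Q2 belongs to a family of near-identical genes, so its reads are uncertain. Nearest to Sp8 were Cct6a (0.998), Lrrc42 (0.995) and Zfp292 (0.995).

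Regulators of endoderm that work beside Hnf4a and Onecut2 were higher in the targeted tumours where they could be tested. Of 33 such genes in the list, 8 had a row of their own and 6 could be tested. All 6 rose, beside 20.6% of all named genes, with a median log2 fold change of 3.53 against -0.0027 over all named genes. Ehf, Onecut3, Nr1h4 and Foxa3 were each under 10 counts in a control and needed the targeted tumours to enter the fit. The list was also chosen with earlier results of these data known, so these shares are a description. Without the 2 muscle-rich tumours 5 rose. Ehf, an ETS factor of epithelia, had 18, 15 and 2 counts in controls and 206, 352 and 242 in targeted tumours, a log2 fold change of 4.70 ± 0.51 (SE; edgeR adjusted p = 0.000312). Onecut3, the third ONECUT gene, had 66, 18 and 1 against 248, 737 and 311 counts, a change of 4.09 ± 0.82 (SE; edgeR adjusted p = 0.00474), from a row with only 90 bp of its exon. The other ONECUT gene, Onecut1, had 1 count in each group. Gata4, also listed, held 0 counts in all 6 tumours, from 109 bp of its exon. Nr1h4, the bile acid receptor, rose by 3.24 ± 0.41 (SE; edgeR adjusted p = 0.000633), from a row with 150 bp of its exon. Foxa3, a forkhead factor of liver, went from 28, 3 and 0 to 30, 220 and 137 counts, a change of 3.82 ± 1.03 (SE; edgeR adjusted p = 0.0174). Among controls it reached 10 counts in sgNT 1 only, so it needed the targeted tumours to enter the fit. Its sgNT 1 and sgUhrf1 1 tumours were near each other at 4.43 and 5.31 CPM, and its adjusted p was 0.0628 without sgNT 2 and 0.0565 in DESeq2. Where a row needed 200 bp of exon to take a name, 3 of the 6 endoderm genes could be counted as higher.

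Of 43 listed genes known as targets of Hnf4a in gut and liver, 11 had a row of their own and 4 could be tested. Of these 3 rose and 0 fell, beside 20.6% higher and 21.5% lower over all named genes. Lgals4, a gut galectin, stood at 83.8, 29.8 and 3.72 CPM in controls and 625, 1456 and 821 CPM in targeted tumours, a log2 fold change of 4.63 ± 0.87 (SE; edgeR adjusted p = 0.00358). Vil1, the microvillus protein villin, had 9.34, 9.04 and 1.60 against 98.6, 210 and 67.7 CPM, a change of 4.22 ± 0.62 (SE, edgeR adjusted p = 0.00113). At 9 counts in sgNT 3, Vil1 needed the targeted tumours to enter the fit. Cdh17, an intestinal cadherin, had 75.7, 46.0 and 36.9 against 561, 797 and 540 CPM, a change of 3.58 ± 0.31 (SE; edgeR adjusted p = 0.000136). The fourth tested gene, Serpina1b, a liver serum protein from a family of near-identical genes whose reads are uncertain, had 13.0, 1.04 and 0.177 against 11.3, 3.97 and 0.880 CPM and a change of 0.20 ± 1.15 (SE; edgeR adjusted p = 0.908). The rows over Cyp7a1, F9 and Fga, made in liver, held 0 counts in all 6 tumours. The other 4 were too low to test: Mttp, a lipid transfer protein of gut and liver, had 6, 16 and 12 against 3, 8 and 0 counts. Anpep, a brush border peptidase, had 2 against 1 count over each group, and Gsta1, a detoxifying enzyme, 0 against 16. The liver enzyme Cyp2e1 had 0, 2 and 40 against 3, 0 and 104 counts, mostly in sgNT 3 and sgUhrf1 3.

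**Figure D4:**
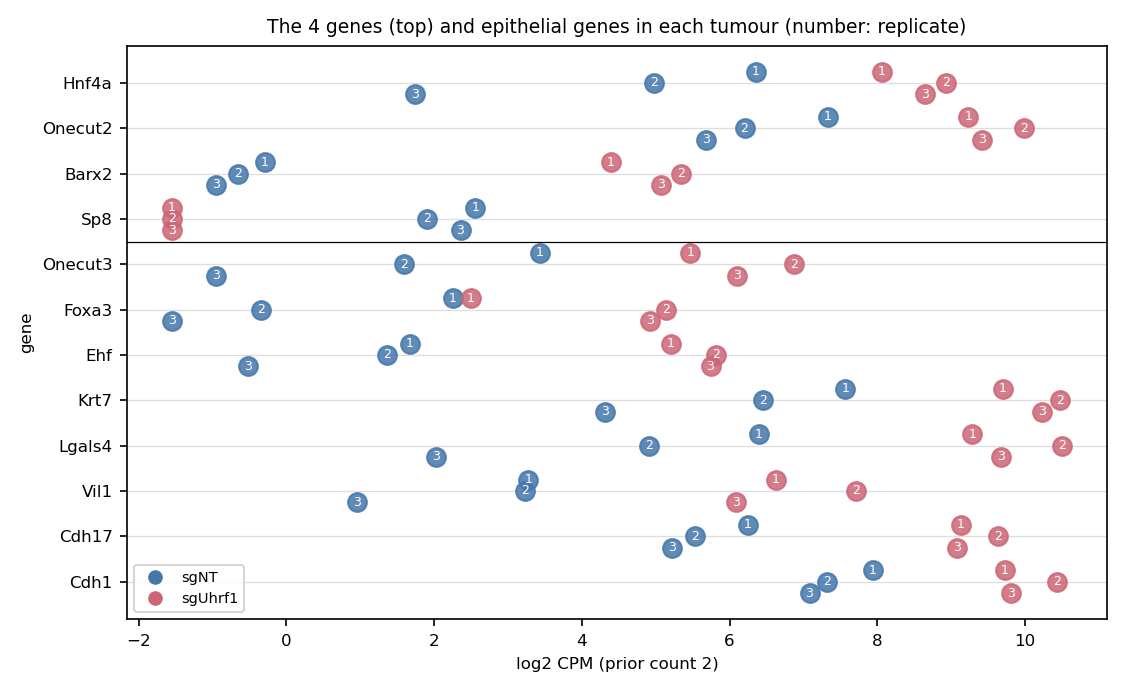
Log2 CPM (prior count 2) of the 4 genes and of 8 epithelial genes in each tumour, blue for sgNT and red for sgUhrf1, with the replicate number in each point. Among the controls sgNT 3 is the lowest for Hnf4a and for these 8 genes, of which Onecut3, Krt7 and Lgals4 are the nearest patterns to Hnf4a, and the sgUhrf1 points lie to the right for all genes but Sp8.

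Markers of epithelial cells in general rose with Hnf4a and Onecut2. Of 44 listed, 14 had a row of their own and 9 were tested. Of these 7 rose, 0 fell and 2 did not pass (77.8% called, beside 42.1% of all named genes), with a median log2 fold change of 2.90. Vil1, Cdh17 and Ehf are among those that rose and were already counted in the lists above, so the lists overlap. Of these, Vil1 and Ehf needed the targeted tumours to enter the fit. Krt7, a keratin of simple epithelia, stood at 189, 87.0 and 19.5 CPM in controls and 831, 1425 and 1203 CPM in targeted tumours, a change of 3.55 ± 0.66 (SE; edgeR adjusted p = 0.00347). Cdh1, E-cadherin, named after its values were seen, changed by 2.53 ± 0.29 (SE; edgeR adjusted p = 0.000408). The summed level of the 14 genes was 579 to 922 CPM in sgNT tumours and 3022 to 4978 CPM in sgUhrf1 tumours, so the control tumours also expressed epithelial genes. The tumour sgNT 3, lowest for Hnf4a, was not the lowest control for all of them: the sum was 579 CPM in sgNT 2 and 589 CPM in sgNT 3, and F11r, a tight junction protein, stood at 139, 76.6 and 114 CPM and the gut keratin Krt20 at 236, 186 and 270 CPM in sgNT 1, 2 and 3. Both were named after their values were seen. The part of epithelial content in the levels of Hnf4a, Onecut2 and Barx2 was not tested. Of the regulators of lung epithelium, 27 were listed and 7 tested. Of these 2 rose and 0 fell, beside 20.6% higher and 21.5% lower over all named genes, with a median of 0.32. Hopx, a small homeodomain protein, had 1 count over the sgNT tumours and 53 over the sgUhrf1 tumours, a ratio of 60.1 (95% interval 10.3 to 2418, counting error only). It was under 10 counts in every control, so it entered the fit through the targeted tumours alone. Etv4, an ETS factor of lung branching, rose by 0.60 ± 0.17 (SE; edgeR adjusted p = 0.0234), a call lost when any of sgNT 2, sgNT 3 or sgUhrf1 2 was left out, at adjusted p of 0.137, 0.0804 and 0.062.

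Nuclear receptors, the family of Hnf4a, had 15 of 48 genes tested. Of these 4 rose and 2 fell, with a median of 0.075; the share called, 40.0%, was near the 42.1% of all named genes. With few tested genes in each list, such shares are coarse. Without the muscle-rich tumours 2 rose and 0 fell. Besides Nr1h4, Nr4a3, an immediate early receptor, changed by 2.05 ± 0.38 (SE; edgeR adjusted p = 0.00342). Nr4a1, of the same subfamily and read from 68 bp of exon, changed by 1.90 ± 0.57 (SE; edgeR adjusted p = 0.0263) and Thra, a thyroid hormone receptor, by -1.38 ± 0.42 (SE; edgeR adjusted p = 0.0282). The Nr4a1 call was lost without any of sgNT 2, sgNT 3 or sgUhrf1 3, with adjusted p up to 0.105. That of Thra was lost without any of 5 tumours, all but sgNT 1, with adjusted p up to 0.107.

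Over all named genes, 20.6% were higher and 21.5% lower. Among 4 tested NK-like and limb homeobox genes of 44, the class near Barx2, 3 rose and 0 fell. Without the muscle-rich tumours 0 passed, at log2 fold changes of 3.17 for Msx3, 1.63 for En1 and 1.52 for Vax2 that were close to those with all tumours. Msx3, a muscle segment homeobox gene, had 10, 1 and 0 against 37, 61 and 24 counts, a log2 fold change of 3.58 ± 0.86 (SE; edgeR adjusted p = 0.0106). Among controls it reached 10 counts in sgNT 1 only, so it needed the targeted tumours to enter the fit. En1, engrailed, changed by 1.62 ± 0.32 (SE; edgeR adjusted p = 0.00449), from 59 bp of exon. Vax2, an eye field gene read from 117 bp of exon, changed by 1.64 ± 0.57 (SE; edgeR adjusted p = 0.0455), a call lost without any one of sgNT 1, 2 or 3 or sgUhrf1 1 or 3, with adjusted p up to 0.163. Of 19 other homeobox genes tested from 108, 4 rose and 6 fell (52.6% called, beside 42.1% of all named genes), with a median of -0.50. Without the muscle-rich tumours 2 rose and 2 fell. Hoxa10, a posterior Hox gene, had 2, 1 and 2 against 40, 55 and 28 counts. It, Hopx and Lhx6, a LIM homeobox factor with 20, 20 and 11 against 1, 3 and 1 counts, are among the called genes, but each was under 10 counts in every tumour of 1 group, so it entered the fit through the other group and is given as counts only. Zfhx4, a large zinc finger homeobox factor, had 35, 135 and 64 against 6, 10 and 2 counts. It fell by 3.51 ± 0.62 on the log2 scale (SE, edgeR adjusted p = 0.00269). Among targeted tumours it reached 10 counts in sgUhrf1 2 only, so it needed the control tumours to enter the fit.

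Relatives of Sp8 gave 1 rise and 2 falls among 5 tested of 25 SP and KLF genes, with a median of -0.39. For comparison, 20.6% of all named genes were higher and 21.5% lower. Klf5, a factor of gut epithelium also in the endoderm list, had 207, 183 and 197 against 413, 662 and 678 CPM, a log2 fold change of 1.58 ± 0.22 (SE; edgeR adjusted p = 0.00091). Sp1, the widely expressed founder of the family, fell by 1.41 ± 0.21 (SE; edgeR adjusted p = 0.00132), from 47.3, 59.3 and 50.5 to 19.8, 17.3 and 22.2 CPM. Klf9, induced by glucocorticoid hormone, fell by 1.98 ± 0.30 (SE; edgeR adjusted p = 0.00138). Among partners of Sp8 in limb and forebrain, 4 of 26 were tested and 2 rose, En1 and Etv4, given above, which were not called without the muscle-rich tumours. Fgf8, the signal that Sp8 is known to maintain in the limb ridge, had 1 count in sgNT and 0 in sgUhrf1 tumours, so it was not detectable at this depth.

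Known targets and partners of Barx2 did not pass the test where they could be read: of 21 listed, 2 were tested, with 0 past an adjusted p of 0.05 in edgeR and 0 at an unadjusted p under 0.05. Cdh6, a cadherin, stood at 273, 339 and 368 CPM in controls and 104, 339 and 146 CPM in targeted tumours, a log2 fold change of -0.73 ± 0.38 (SE; edgeR adjusted p = 0.154). Without sgUhrf1 2 it was -1.40, with an adjusted p of 0.00374. With all 6 tumours it was -0.81 with no low-count filter (adjusted p = 0.00252) and -0.91 with the replicate block (adjusted p = 0.0442), and it was -0.41 (adjusted p = 0.508) without the muscle-rich tumours. Srf, serum response factor, had 15.7, 24.0 and 41.1 against 37.4, 28.7 and 30.3 CPM and a change of 0.26 ± 0.34 (SE; edgeR adjusted p = 0.575).

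**Figure D5:**
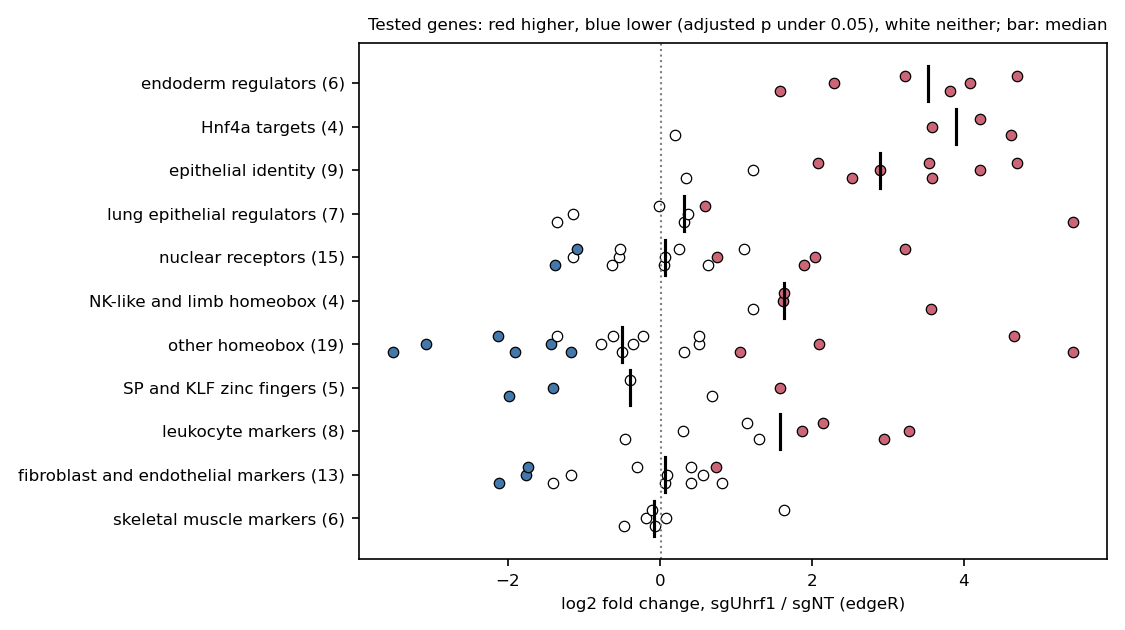
Fitted log2 fold change of each tested gene in 11 lists, numbers of tested genes in parentheses, red for higher and blue for lower at an adjusted p under 0.05, white for neither, and a bar at each median. The endoderm and epithelial lists lie to the right of 0, and nuclear receptors, other homeobox and SP and KLF genes lie on both sides.

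Markers of other cells that a tumour under the skin can hold were read beside these values. For comparison, 20.6% of all named genes were higher and 21.5% lower. Skin and hair follicle, where Barx2 is also expressed, had 4 tested markers, of which 2 rose and 2 fell; 4 markers rose without any one of sgNT 1, 2, 3 or sgUhrf1 3. Ivl, an envelope protein of stratified epithelium, had 7, 14 and 2 against 26, 211 and 490 counts, a change of 5.30 ± 1.07 (SE; edgeR adjusted p = 0.00481). Among controls it reached 10 counts in sgNT 2 only, so it needed the targeted tumours to enter the fit. The keratin Krt79 had 3, 8 and 0 against 30, 46 and 58 counts and entered the fit through the targeted tumours alone. Lor, an envelope protein of the upper epidermis, changed by -1.31 ± 0.25 (SE; edgeR adjusted p = 0.00389) and the keratin Krt80 by -1.14 ± 0.37 (SE; edgeR adjusted p = 0.0364), a call lost without any of sgNT 2, sgNT 3, sgUhrf1 1 or sgUhrf1 2. The summed level of 10 skin markers was 80.4 to 132 CPM in sgNT and 62.3 to 165 CPM in sgUhrf1 tumours. Of defining basal markers, Krt5 had 1 count in sgNT tumours and 131 in sgUhrf1 tumours, all of them in sgUhrf1 2, and Trp63 had 2 and 0. Krt15, another basal keratin, had 0, 0 and 1 counts in controls and 13, 31 and 7 in targeted tumours. Dsg3, a desmosomal cadherin of such layers, had 0 counts in the sgNT and 47, 60 and 5 in the sgUhrf1 tumours.

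Muscle precursors, another site of Barx2, had 3 tested markers, of which 1 rose and 2 fell; with no low-count filter 4 fell. Of the untested ones, Pax3, a precursor factor, had 16, 45 and 8 against 3, 0 and 0 counts, Calcr, the calcitonin receptor, 15 against 0 over each group and Mymk, a fusion protein, 18 against 3. Myod1, the myogenic master factor, had 11 against 10. Fgfr4, a growth factor receptor also made in liver, changed by 4.64 ± 0.76 (SE; edgeR adjusted p = 0.00189), Itga7, a laminin receptor of muscle, by -2.55 ± 0.23 (SE; edgeR adjusted p = 0.000148) and Sdc4, a syndecan, by -0.56 ± 0.20 (SE; edgeR adjusted p = 0.0484). The Sdc4 call, from 132 bp of exon, was lost without any of 5 tumours, all but sgNT 1. Of 6 tested skeletal muscle genes, 0 passed the adjusted and 1 an unadjusted p under 0.05, while DESeq2 called 1 as higher and 2 were called higher without sgNT 2. Ckm had 2.38, 243 and 0.177 CPM in sgNT and 186, 11.9 and 18.0 CPM in sgUhrf1 tumours, and its log2 fold change of -0.19 ± 1.61 (SE; edgeR adjusted p = 0.937) became 5.73 without sgNT 2. Eno3 had a change of -0.47 ± 0.37 (SE; edgeR adjusted p = 0.341). Without the muscle-rich tumours Hnf4a, Onecut2 and Barx2 had log2 fold changes of 3.38, 3.00 and 6.69.

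Of 8 leukocyte markers tested, 4 rose and 0 fell, with a median log2 fold change of 1.59. The share called was 50%, all of it higher. Of all named genes 20.6% were higher and 42.1% were called in either direction. Their list had a summed level of 105 to 194 CPM in sgNT and 168 to 333 CPM in sgUhrf1 tumours. Those that rose were the T cell kinases Lck (3.29 ± 0.62; edgeR adjusted p = 0.00353) and Zap70 (2.95 ± 0.54; edgeR adjusted p = 0.00324), the integrin Itgax (2.15 ± 0.29; edgeR adjusted p = 0.000794) and the signalling protein Vav1 (1.87 ± 0.38; edgeR adjusted p = 0.00508), as log2 fold changes with SE. The control maximum of 194 CPM, in sgNT 3, the tumour lowest for Hnf4a, includes 58.3 CPM of the B cell gene Ms4a1, which had 329 counts there and at most 3 in any other tumour. The pan-leukocyte genes Ptprc, at 0.30 ± 0.36 (SE; edgeR adjusted p = 0.534), and Lcp1, at -0.46 ± 0.27 (SE; edgeR adjusted p = 0.213), did not pass. The Vav1 value was 0.26 in the row with at least 200 bp of its exon. Among 13 tested fibroblast and endothelial genes 1 rose and 3 fell, 30.8% called (3 rose without sgUhrf1 2), with sums of 12993 to 20025 and 8077 to 18673 CPM. Fn1, fibronectin, changed by -2.11 ± 0.37 (SE; edgeR adjusted p = 0.0027), Col5a1, a collagen chain, by -1.76 ± 0.39 (SE; edgeR adjusted p = 0.00714) and Pdgfra, a fibroblast receptor, by -1.73 ± 0.49 (SE; edgeR adjusted p = 0.0211). Thy1, a surface marker, rose by 0.74 ± 0.22 (SE; edgeR adjusted p = 0.0268), a call lost without any of 5 tumours, all but sgUhrf1 2, and that of Pdgfra was lost without sgNT 2. Of 3 tested nerve genes 1 fell: Map2, a neuronal cytoskeletal protein, by 1.47 ± 0.44 on the log2 scale (SE; edgeR adjusted p = 0.0262), a call lost without any of sgNT 2, sgNT 3, sgUhrf1 2 or sgUhrf1 3, with adjusted p up to 0.116. Without sgUhrf1 2, 1 nerve gene rose. The part of these other cells in the 4 genes' values was not tested.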

How the data were processed

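Poly(A) RNA of 6 tumours was sequenced in read pairs. Whole-number counts per row are deposited, made by the authors with fastp, STAR and featureCounts on GRCm38, per the submitters' processing notes; featureCounts was version 2.0.1 and the row annotation GENCODE M26, per the file headers. That annotation uses another build, so rows were renamed with GENCODE M21: 13432 of 53599 rows cover at least 50 bp of exon of a single gene and hold 41.4% of counts, 4948 cover several genes and hold 56.8%, and 11092 took a new name. The row named Hnf4a in the files lies over Oser1, and those named Barx2 and Sp8 hold 0 counts. Total counts were 5462555 to 6375069 per tumour.

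Rows were tested with edgeR 4.0.16 in R 4.3.3 (TMM, filterByExpr with minimum count 10 and minimum total 15, quasi-likelihood F test, Benjamini-Hochberg over 10503 rows, threshold 0.05), after a check on simulated data. The filter asks for about 10 counts in at least 3 tumours. Ehf, Onecut3, Nr1h4, Vil1, Nr4a1, Fgfr4 and Zap70, each under that in a control, needed targeted tumours to enter the fit. Barx2 and St8sia3os entered it through the targeted tumours alone and Sp8 through the control tumours alone. Zfhx4 needed the control tumours. SD and n are over 3 tumours; the labels call them biological replicates without naming mice, so p-values measure only the spread between these tumours. Alternatives were DESeq2 1.42.0, limma 3.58.1 voom, other scaling and filters, other naming rules, a replicate block, and leaving out tumours. Named are the 4 genes, up to 4 genes past the threshold per list by size of change (or 2 by level where none passed), and the 3 nearest patterns per gene; 17 lists were used. The genes and lists were chosen with earlier results of these data known.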

Additional observations from a re-analysis of the deposited data

How the results depend on the processing

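Rows higher in sgUhrf1 tumours numbered 2121 and rows lower 2066. Leaving out 1 tumour gave 1431 to 2020 higher and 1259 to 1908 lower, with 1259 lower rows without sgNT 2. Without the 2 muscle-rich tumours 1094 rows were higher and 771 lower; fewer samples were then compared. Hnf4a, at 3.32, ranged from 2.77 to 4.46 on leaving out 1 tumour, the highest without sgNT 1, and was 4.17 with limma-voom. Onecut2, at 3.01, ranged from 2.71 to 3.59, the highest without sgNT 1. Barx2, at 6.53, stayed between 6.27 and 6.88 over 16 alternatives. The Sp8 bound, at -4.64, ranged from -4.86 to -3.96 on leaving out 1 tumour and was -4.24 without the muscle-rich tumours; fewer samples stand behind it. Deviations of tumours with the same replicate number had correlations of -0.078, -0.022 and 0.053, so the main fit did not pair the samples. Such values cannot exclude a batch shared by tumours of the same number. With the replicate block, 1838 rows were higher and 1807 lower, and Hnf4a was 4.0, Onecut2 3.16 and Barx2 6.49. Ckm, from -2.47 to 5.73 on leaving out 1 tumour, turned from -0.19 to 2.47 with limma-voom, 3.10 with the replicate block, 5.73 without sgNT 2, 0.31 without sgUhrf1 2, 0.25 without sgUhrf1 3 and 3.49 without the muscle-rich tumours. Srf turned from 0.26 to -0.043 without sgNT 1 and reached 0.68 without sgNT 3. The cause of these changes was not tested. Over the other named genes 730 values kept their direction and side of the threshold, 68 lost the call and 3 gained it. Barx2 in sgNT tumours and Sp8 in sgUhrf1 tumours lie at the limit that this depth can show.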

Other observations

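Rows with an interval within 100 kb of the 4 genes were read as well, chosen after their values were seen. Beside Onecut2, the row over 2729 bp of exon of Atp8b1, a lipid flippase gene, had 50, 64 and 22 counts in controls and 222, 463 and 278 in targeted tumours, a log2 fold change of 3.02 ± 0.37 (SE; edgeR adjusted p = 0.000559). This row carries the name Onecut2 in the files. The row over 299 bp of St8sia3os, a non-coding gene, had 5, 2 and 1 against 40, 66 and 97 counts. St8sia3os was under 10 counts in every control, so it entered the fit through the targeted tumours alone and is given as counts only. Beside Hnf4a, the row over Oser1 had 102, 95 and 117 against 71, 78 and 78 counts, a change of -0.28 ± 0.28 (SE; edgeR adjusted p = 0.465). A row shared by Fitm2 and 2310001K24Rik, also beside Hnf4a, had 277, 417 and 344 against 199, 176 and 136 counts, a change of -0.84 ± 0.22 (SE; edgeR adjusted p = 0.0147).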
